A study of Mus musculus with 6 samples.

Results

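The miR-29 and miR-26 families are microRNAs (miRNAs), small RNAs that pair with messenger RNAs and lower their output. They were measured here by 5 probes, for miR-29a (1org-29a), miR-29b (1org-29b), miR-29c (1org-29c), miR-26a (1org-26a) and miR-26b (1org-26b), which were taken by name from the 178 probes of the array, 171 of them for miRNAs. Total RNA of mouse CD4+CD25+ cells, labelled as natural T reg cells, was compared with that of conventional CD4+CD25- T cells on 6 two-colour arrays. They stand for 3 biological replicates and their dye swaps: by the number in the titles, CD4+CD25+ RNA carried Cy5 on arrays 1, 3 and 5 (the Cy5 orientation below) and Cy3 on arrays 2, 4 and 6 (the Cy3 orientation). The sources used here name no strain, age, tissue of origin, sorting or pooling of animals, and do not say whether replicates came from separate animals. The spread between these samples may thus be technical. The p-values of single probes measure only that spread, in part as pooled over the miRNA probes rather than as that of the probe itself. CD25 is also carried by recently activated conventional T cells, so that a CD25 gate alone does not separate these from regulatory T cells.

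A miRNA finds its targets mainly through its seed, bases 2 to 8 from the 5′ end, and miRNAs with a common seed form a family that can act on the same messenger RNAs. miR-29 is known for its collagen and DNA methyltransferase targets and, in T cells, for restraining interferon gamma and the factors T-bet and Eomes that drive it. miR-26 is known for its target Ezh2, a histone methyltransferase, and is processed from introns of genes for small C-terminal domain phosphatases. Both families are abundant in resting lymphocytes and fall when T cells are activated, as background from other work.

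The mature sequences are shown because members of a family differ by so few bases that the probes of one family are close to one another. All 5 members were matched to RefSeq (GRCm38.p6). The probe names give no arm, and the strand shown is the one that carried the plain name when such arrays were made. The probe sequences were not used here. The capitals mark the seed.
miR-29a: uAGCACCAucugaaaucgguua
miR-29b: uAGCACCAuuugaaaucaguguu
miR-29c: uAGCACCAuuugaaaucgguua
miR-26a: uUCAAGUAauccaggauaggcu
miR-26b: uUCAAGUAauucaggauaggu

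The 3 miR-29 miRNAs share the seed AGCACCA and the 2 miR-26 miRNAs the seed UCAAGUA. No further mouse miRNA name among the 1679 of the RefSeq table had either seed. Counted from the 5′ end with the first-named miRNA's base first, miR-29c differs from miR-29a by 1 base, C10U, and miR-29b differs from miR-29a by C10U, G18A, U21G and A22U and 1 further base at its end. miR-26b differs from miR-26a by C11U and C21U and is 1 base shorter. Between the families, 5 to 8 of the 21 or 22 aligned positions are identical.

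The genes lie at 5 places in the genome (RefSeq, GRCm38.p6). Mir29a (chr6:31062660-31062747, minus strand) lies 275 bases from Mir29b-1 (chr6:31063023-31063093), and Mir29b-2 (chr1:195037040-195037120, plus strand) lies 426 bases from Mir29c (chr1:195037547-195037634), the second pair inside the long non-coding RNA gene A330023F24Rik. Both Mir29b genes give the same mature miRNA, so that miR-29b comes from both clusters, and miR-29a and miR-29c from 1 each. Mir26a-1 (chr9:119031796-119031885) lies within Ctdspl, Mir26a-2 (chr10:126995530-126995613) within Ctdsp2 and Mir26b (chr1:74394310-74394394) within Ctdsp1, all on the plus strand. Mature miR-26a therefore comes from 2 genes and miR-26b from 1. How far each probe also binds the other members of its family was not tested.

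All values are log2 ratios, CD4+CD25+ over CD4+CD25-. The deposited ratio was read as Cy5 over Cy3 and arrays 2, 4 and 6 were multiplied by -1 (turned). The log base, the direction and any earlier turning by the authors are not stated, and under the opposite reading every sign below turns. If the authors had already turned the arrays, the 4 members called lower below would stand at 0.28 to 0.45 and miR-29c at -0.54, and limma would call 0 of the 5 (0 also without adjustment, at p under 0.05). The probe with the highest mean, miR-223, was above 0 on all 6 turned arrays, with means of 4.05 (Cy5 orientation) and 4.18 (Cy3 orientation). As deposited, its sign changed with the dye. The turned arrays of opposite dye correlated over the 171 miRNA probes at -0.25 to 0.37, against 0.52 to 0.62 within the Cy5 orientation and 0.90 to 0.92 within the Cy3 orientation. The medians of the miRNA probes were -0.085, -0.31 and 0.097 on arrays 1, 3 and 5 but 1.83, 1.29 and 1.82 on arrays 2, 4 and 6, so that the median probe had a mean of 0.82, and changes are given below both as deposited and relative to each array's median. A ratio gives no level, and no messenger RNA was measured, so the labelled cell types could not be checked against their markers. Of 6 miRNA probes marking other cell types (miR-223, miR-144, miR-122a, miR-206, miR-9 and miR-124a), 6 were called higher as deposited (67.3% of all miRNA probes were) and 1 relative to the median (5.26%): miR-223, a myeloid miRNA, at 4.12 ± 0.855 (SD, n = 3), from 2.93 to 4.99 over the 6 arrays. Relative to the median the other 5 lay between -0.079 and 0.30. Outside these 6, the muscle probes miR-1b, miR-1d and miR-133 stood at 0.36, 0.15 and 0.44 relative to the median and the neural probe miR-128 at -0.030, none of them called. The part of myeloid cells in the results below was not tested, and fewer cells of a type and less RNA per cell cannot be told apart in these samples.

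Of the 5 members, 4 were lower in CD4+CD25+ cells: miR-29a, miR-29b, miR-26a and miR-26b, to between 46.3% and 66.6% of the CD4+CD25- value. The fifth, miR-29c, did not pass the test. Of all 171 miRNA probes, 15, or 8.77%, were called lower. A probe was called when its Benjamini-Hochberg adjusted p in limma was under 0.05 in each of the 6 ways of pairing arrays of opposite dye, and the largest p and the largest SD over the pairings are given. The median of the 5 members was -0.72 and that of all miRNA probes 0.82.

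Within the miR-29 family, miR-29a had ratios of -0.23, -0.16 and -0.25 on arrays 1, 3 and 5 and of -0.67, -1.67 and -0.55 on arrays 2, 4 and 6. It was below 0 on every array, the 2 orientations did not overlap, and array 4 lay far below the rest. Its mean was -0.59 ± 0.325 (SD, n = 3; limma adjusted p = 0.0410), or 66.6% of the CD4+CD25- value. miR-29b, the member made from both clusters, had -0.36, -0.68 and -0.27 on arrays 1, 3 and 5 and -0.44, -2.22 and -0.34 on arrays 2, 4 and 6. Its mean was -0.72 ± 0.636 (limma adjusted p = 0.0338), or 60.7%. Both dye orientations were below 0 and overlapped, and array 4 again stood lowest. miR-29c, the partner of miR-29b on chromosome 1, had -1.16, -0.99 and -0.71 on arrays 1, 3 and 5 and 0.23, -0.97 and 1.14 on arrays 2, 4 and 6. It was thus the lowest of the family on each array of the Cy5 orientation and the highest on each of the Cy3 orientation. Its mean of -0.41 ± 0.638 did not pass (limma adjusted p = 0.150).

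In the miR-26 family, miR-26a had -0.13, -0.35 and -0.73 on arrays 1, 3 and 5 and -0.33, -1.86 and -0.98 on arrays 2, 4 and 6. Its mean was -0.73 ± 0.535 (SD, n = 3; limma adjusted p = 0.0147), or 60.2% of the CD4+CD25- value. It was below 0 on every array, lowest on array 4, and the orientations overlapped. miR-26b had -0.050, -0.92 and -1.03 on arrays 1, 3 and 5 and -0.52, -2.64 and -1.51 on arrays 2, 4 and 6. Its mean was -1.11 ± 0.779 (limma adjusted p = 0.00728), or 46.3%. It had the lowest mean of the 5 members, the fourth lowest of all miRNA probes, and also the widest spread, from near 0 on array 1 to the lowest value of any miRNA probe on array 4. Being below 0 on 6 of 6 arrays held for these 4 members and for 15 of the 171 probes (8.77%).

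**Figure D1:**
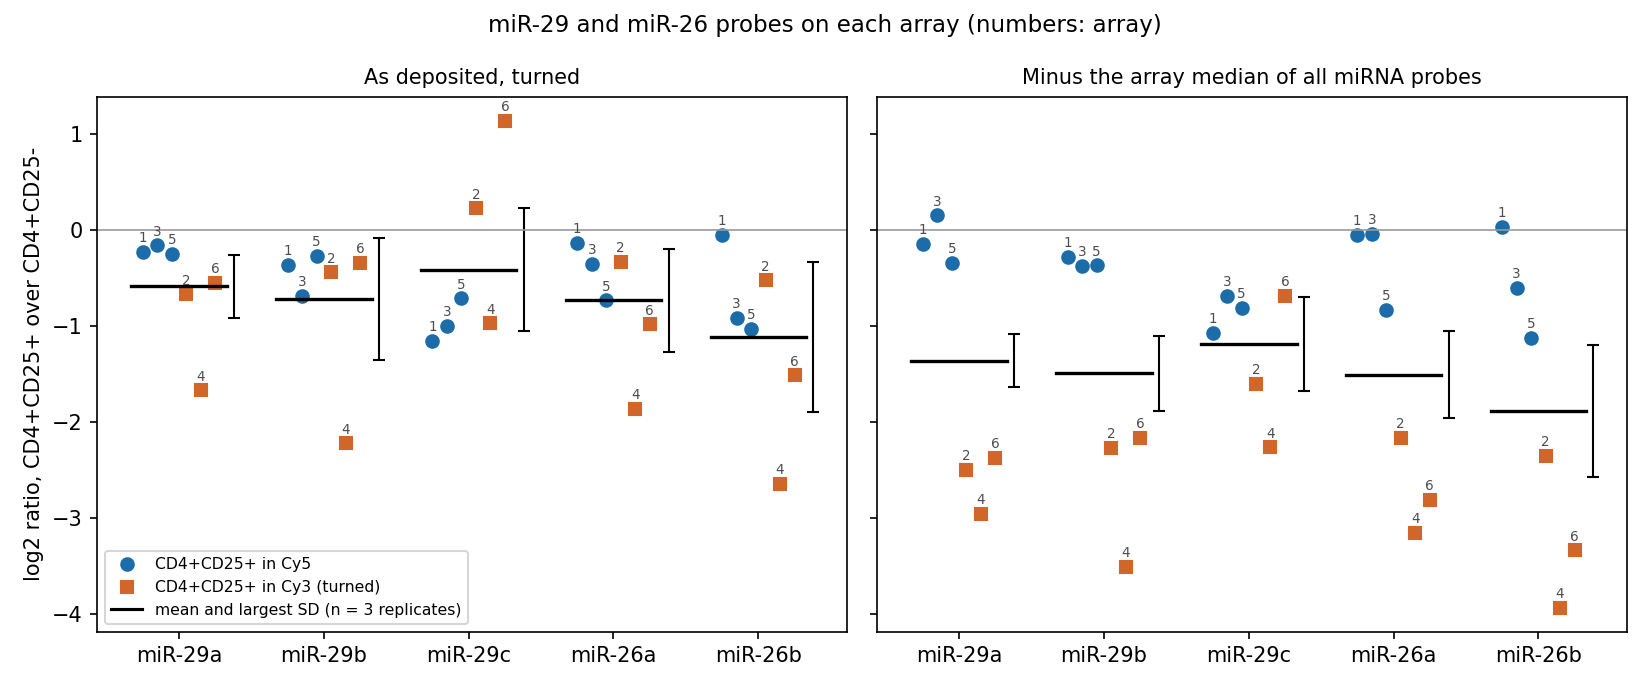
Log2 ratio (CD4+CD25+ over CD4+CD25-) for the 5 members on each of the 6 arrays (vertical axis), as deposited and turned (left) and minus the array's median over the 171 miRNA probes (right). Circles are the Cy5 orientation, squares the Cy3 orientation; black lines are means and bars the largest SD over the pairings (n = 3). On the left, 4 members lie below 0 on every array and miR-29c rises above 0 on arrays 2 and 6; on the right, the squares of miR-29a, miR-29b, miR-26a and miR-26b lie below all their circles.

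The calls of miR-29a and miR-29b were near the threshold. The largest standard error was 0.271 for each of the 5 members, although their SDs ran from 0.325 to 0.779, as limma there pooled the variance over the probes. The largest p was taken separately over the pairings, so it could come from a pairing in which a probe's own spread counted more. In the 9 fits that left out 1 array of each dye the ratio of every member stayed below 0, but miR-29a was called in 0 of 9, with -0.70 to -0.40 and adjusted p from 0.0513 to 0.165 (limma), miR-29b in 3, miR-26a in 5 and miR-26b in 6 of 9. miR-26a lost its call without arrays 1 and 6, 3 and 2, 5 and 4, or 5 and 6, and miR-26b without the last 3 of these. miR-29b kept its call only without arrays 3 and 6, 5 and 2, or 5 and 4. Array 4 held the lowest ratio of miR-29a, miR-29b, miR-26a and miR-26b, and in the 3 fits without it they stood at -0.42 to -0.40, -0.46 to -0.35, -0.60 to -0.45 and -0.99 to -0.75.

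The zero point of the arrays set how far below 0 the members stood. Relative to the array median all 5 members were lower, where 39 of the 171 probes (22.8%) were. miR-26b then stood at -1.88 ± 0.688 (SD, n = 3), miR-26a at -1.51 ± 0.450, miR-29b at -1.49 ± 0.390 and miR-29a at -1.36 ± 0.273 (limma adjusted p from 0.000102 to 0.000162). On single arrays, miR-29a lay above the median on array 3 (0.15) and miR-26b on array 1 (0.035), and the other members lay below it on every array. miR-29c passed here, at -1.18 ± 0.491 (limma adjusted p = 0.000622). The 4 members called as deposited were thus among the 15 probes (8.77%) called lower under both zero points. Relative to U6, a spliceosomal RNA, and 4 tRNA probes, whose own means lay between -0.92 and -0.063, no member was called in limma (0 at an unadjusted p under 0.05): miR-26b had -0.65 ± 1.07 (limma adjusted p = 0.141), miR-26a -0.27, miR-29b -0.25 and miR-29a -0.12, and miR-29c turned to 0.054. By that zero point 1 of the 171 probes (0.585%) was called lower. The mean of the U6 and tRNA probes was 0.52 on array 3 and between -0.76 and -0.49 on the other arrays. Scale normalization brought the arrays to a common median absolute value about 0 without moving their zero. It multiplied arrays 1, 3 and 5 by 1.86, 1.63 and 2.25 and arrays 2, 4 and 6 by 0.493, 0.601 and 0.495. The Cy5 orientation thus gained weight over the Cy3 orientation. This left 4 probes (2.34%) called lower in limma and no member (3 at an unadjusted p under 0.05). miR-26b then stood at -1.08 ± 0.888 (limma adjusted p = 0.128) and miR-29c at -0.88 ± 0.435 (limma adjusted p = 0.0764). With this change in the weight of the orientations the order of the members changed, miR-29c moving from the highest mean to the second lowest.

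**Figure D2:**
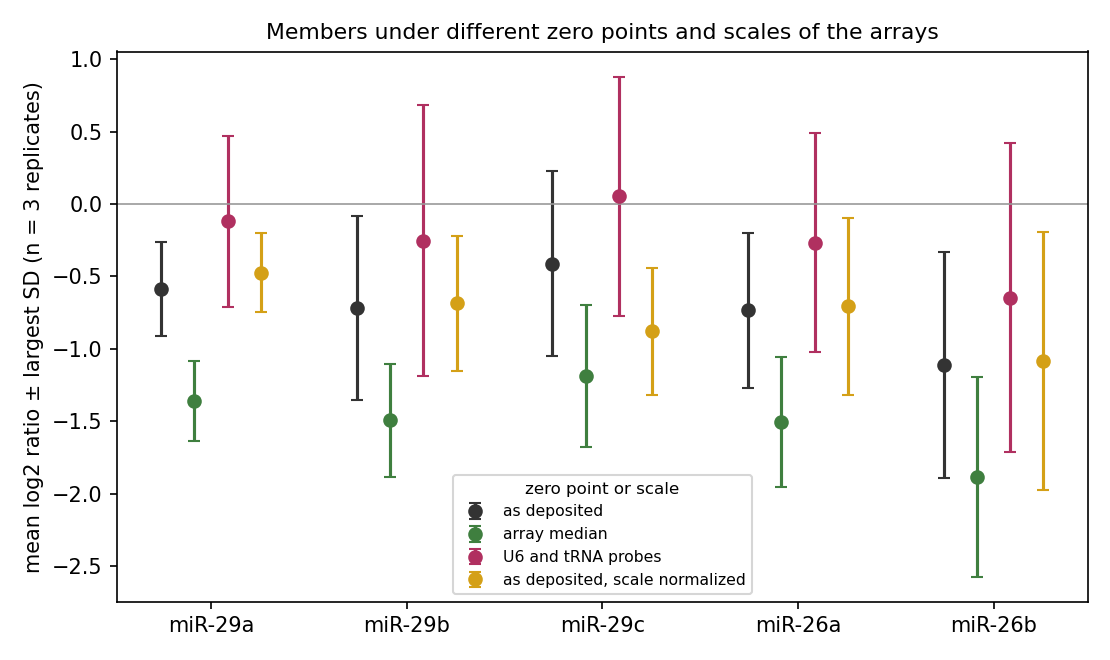
Mean log2 ratio, CD4+CD25+ over CD4+CD25- (vertical axis), of the 5 members as deposited, relative to the array median, relative to U6 and the tRNA probes, and as deposited after scale normalization; bars are the largest SD over the pairings (n = 3 replicates). The values relative to the median are the lowest of each member, and those relative to U6 and the tRNAs lie nearest 0, with miR-29c at 0.054.

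The 2 dye orientations did not place the members alike. As deposited, miR-29a averaged -0.21 ± 0.046 (SD, 3 arrays) in the Cy5 orientation and -0.96 ± 0.615 in the Cy3 orientation, a difference of 0.75 that did not pass the dye test (limma on 6 arrays, adjusted p = 0.123). For miR-26b the means were -0.66 ± 0.535 and -1.56 ± 1.06 (adjusted p = 0.103). miR-29b and miR-26a also did not pass (adjusted p = 0.276 and 0.189), so that the dye effect seen in 120 of the 171 probes (70.2%) was called for 1 member, miR-29c. Its means were -0.95 ± 0.224 in Cy5 and 0.13 ± 1.06 in Cy3, a difference of -1.08 (limma adjusted p = 0.0456). This dye test treats the 2 arrays of a replicate as separate.

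Relative to the array median the split was the reverse. miR-29a then averaged -0.11 in the Cy5 and -2.61 in the Cy3 orientation, miR-29b -0.34 and -2.65, miR-26a -0.31 and -2.71 and miR-26b -0.56 and -3.21 (limma adjusted p of the dye 3.43e-05 or less for each). The low standing of these 4 members against the median probe thus came mostly from arrays 2, 4 and 6. miR-29c, at -0.85 and -1.52, was the member without a called dye effect (limma adjusted p = 0.171), where 78 of the 171 probes (45.6%) had one. Within single orientations and as deposited, arrays 2, 4 and 6 alone called miR-29a, miR-29b, miR-26a and miR-26b lower (25 of 171 probes, 14.6%), and arrays 1, 3 and 5 alone called miR-29c (7 of 171 probes, 4.09%). All 5 members were below 0 on each of arrays 1, 3 and 5, as were 47 probes (27.5%).

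The ranks among the 171 miRNA probes, counted from the lowest ratio, showed the same split. On array 1, miR-29a ranked 76, miR-29b 54, miR-26a 81 and miR-26b 88, in the middle of the probes, while miR-29c ranked 7. On array 4 they ranked 13, 4, 11 and 1, and miR-29c ranked 28. Array 5 differed from the other arrays of its orientation in that miR-26a ranked 11 and miR-26b 4 there, ahead of miR-29c at 13, with miR-29a at 42 and miR-29b at 40. miR-26b held ranks 19, 1, 4 and 3 on arrays 2, 4, 5 and 6, and 22 on array 3.

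**Figure D3:**
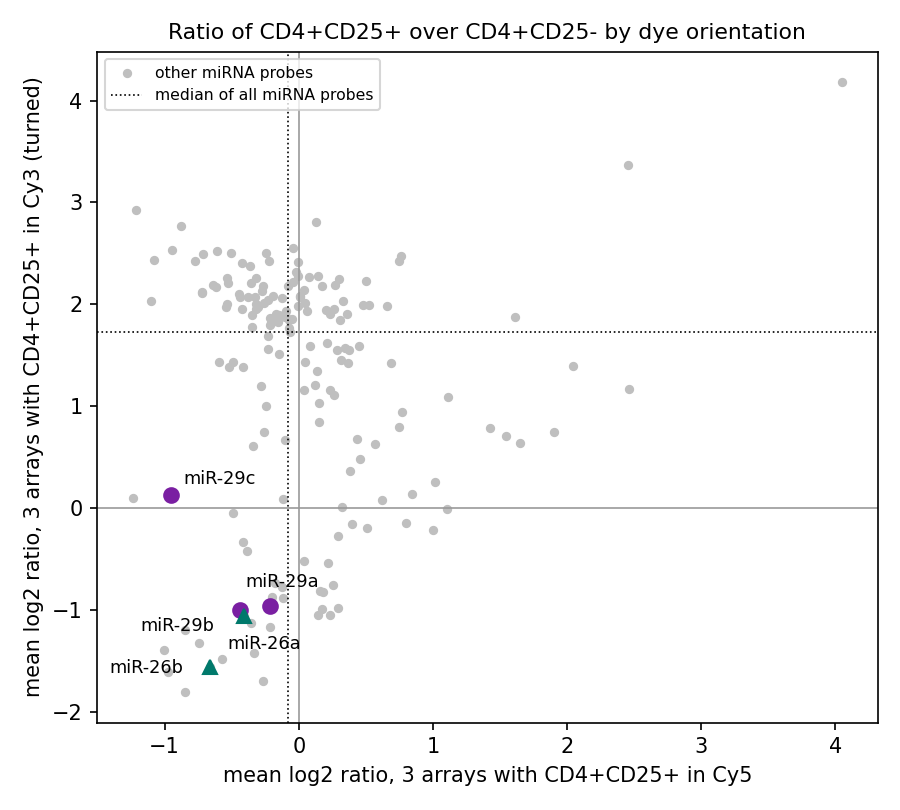
Each point is a miRNA probe, placed by its mean log2 ratio over the 3 arrays of the Cy5 orientation (horizontal axis) and the 3 turned arrays of the Cy3 orientation (vertical axis); purple circles are miR-29 and green triangles miR-26 members. Dotted lines are the medians of all miRNA probes, near 0 on the horizontal axis and at 1.73 on the vertical one. miR-29a, miR-29b, miR-26a and miR-26b sit together at the lower left, below -0.9 on the vertical axis, and miR-29c sits apart at -0.95 and 0.13.

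Differences between members on one array do not depend on its zero point. With 3 replicates the smallest two-sided p of an exact sign-flip permutation test is 0.25, so none of the 10 pairs could pass this test, and each adjusted p was 1. Within the miR-29 family, miR-29b minus miR-29a was -0.13 ± 0.352 (SD, n = 3) and within the miR-26 family miR-26b minus miR-26a was -0.38 ± 0.311 (exact permutation p = 0.25). miR-26b was the lower of the miR-26 pair on 5 of 6 arrays, by -0.19 to -0.78, and the higher on array 1, by 0.082. The values of miR-29a and miR-29b, which share a cluster, crossed between arrays, with miR-29b lower on 4 of 6.

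miR-29c minus miR-29a, which differ by 1 base, was -0.93, -0.84 and -0.47 on arrays 1, 3 and 5 and 0.89, 0.70 and 1.69 on arrays 2, 4 and 6. The sign followed the dye on every array, and the mean of 0.17 ± 0.384 averaged 2 opposite differences, -0.74 and 1.09. miR-29c minus miR-29b, its partner at 1 locus, was -0.79, -0.31 and -0.44 on arrays 1, 3 and 5 and 0.66, 1.25 and 1.48 on arrays 2, 4 and 6. In the values as deposited, before turning, miR-29c was therefore below miR-29a and miR-29b on all 6 arrays, whichever cells carried Cy5.

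Between the families, the mean of the 2 miR-26 probes was -0.92 and that of the 3 miR-29 probes -0.57. The difference, miR-26 minus miR-29, was -0.35 ± 0.540 (SD, n = 3), smaller than its spread. It averaged -0.00011 in the Cy5 orientation and -0.70 in the Cy3 orientation. miR-26a and miR-29b had nearly the same mean, their difference being -0.013 ± 0.476. The largest mean difference between families was that of miR-26b minus miR-29c, at -0.70 ± 0.834, from -2.65 on array 6 to 1.11 on array 1. In order of their means, miR-26b, miR-26a, miR-29b, miR-29a and miR-29c, the neighbours miR-26a and miR-29b, miR-29b and miR-29a, and miR-29a and miR-29c differed by less than their spread, and miR-26b and miR-26a by more than it, with the exact permutation p at the smallest that the sign-flip test can give (0.25).

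**Figure D4:**
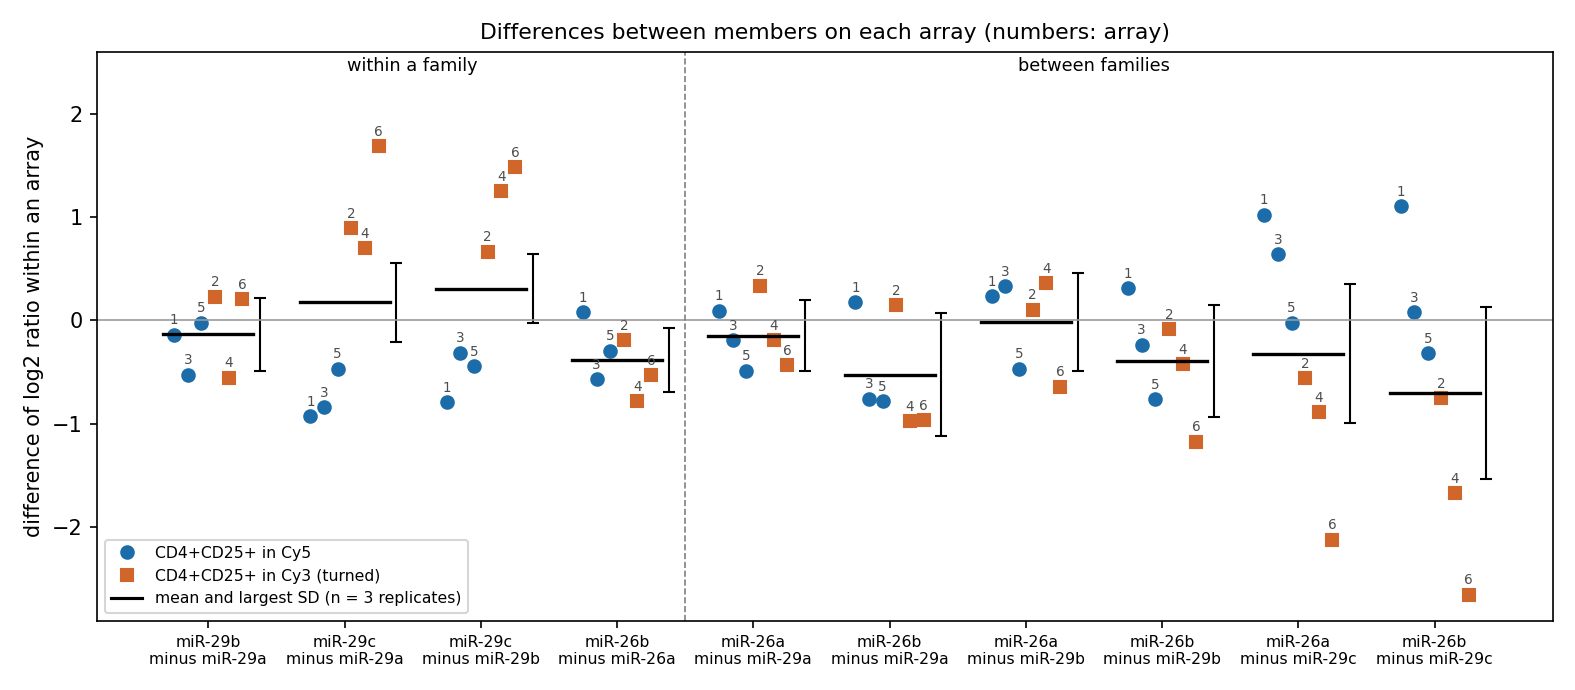
Difference of log2 ratio between 2 members on the same array (vertical axis) for the 4 pairs within a family (left of the dashed line) and the 6 between families; circles are the Cy5 orientation, squares the Cy3 orientation, black lines means and bars the largest SD (n = 3 replicates). For miR-29c minus miR-29a and miR-29c minus miR-29b all circles lie below 0 and all squares above it, while miR-26b minus miR-26a lies below 0 on 5 of 6 arrays.

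Likeness between probes was measured as the root mean square difference of their log2 ratios over the 6 arrays, which is also free of the zero point. These values are a description, as the points share arrays and dyes. miR-29a lay nearest to miR-30d (0.167), miR-106b (0.275) and miR-30c (0.276), against a median of 1.99 over all other probes. miR-29b was nearest to miR-29a (0.340), miR-26a (0.394) and miR-19a (0.414). miR-26a was nearest to miR-30c (0.255), miR-29a (0.322) and let-7c (0.338), and miR-26b to let-7c (0.348), miR-26a (0.472) and the miR-142* probe (0.527). Across the family boundary miR-26a thus lay nearer to miR-29a and miR-29b than to miR-26b. miR-29c lay nearest to miR-30e (0.396), then miR-195 (0.672) and miR-142-s (0.751). Its distances to miR-29a and miR-29b were 0.991 and 0.923, so that it was further from its own family than miR-26a was from miR-29a. Ranked by distance to miR-29c among all other miRNA probes, miR-29b was still number 8 and miR-29a number 12, ahead of miR-26a (23) and miR-26b (65).

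A list of further miRNAs abundant in resting T cells held 8 probes (miR-150, miR-30a to miR-30e, miR-142-as and miR-101), compared with the same test. Of these, 5 were lower (miR-150, miR-30b, miR-30c, miR-30e and miR-142-as), 1 was higher (miR-101) and 2, miR-30a and miR-30d, did not pass, where 8.77% of all miRNA probes were lower and 67.3% higher. miR-30e, at -0.57 (limma adjusted p = 0.0473), averaged -1.24 in the Cy5 and 0.099 in the Cy3 orientation. The others called lower averaged below 0 in both. miR-101 averaged -0.32 in the Cy5 and 2.00 in the Cy3 orientation, and stood at 0.066 relative to the median, where it was not called. The list was chosen with earlier results of these data known, and miR-30a to miR-30e are 1 family, so its counts are a description. Outside the list, miR-142-s stood at -0.27 (limma adjusted p = 0.347) and miR-142* at -1.29 (limma adjusted p = 0.00569). Relative to the array median 6 of the 8 were lower, and relative to U6 and the tRNAs 1 of the 8, with a median of -0.19. The median of the 8 was -0.66 as deposited and -1.43 against the array median, beside -0.72 and -1.49 for the 5 members. The lowest were miR-30b at -1.33 ± 0.544 (SD, n = 3; limma adjusted p = 0.00411), miR-142-as, from the blood-cell gene Mir142, at -1.20 ± 0.440 and miR-150, a miRNA that targets Myb, at -1.03 ± 0.255 (adjusted p = 0.00569 for both), and the fourth was miR-30c at -0.74 ± 0.338 (adjusted p = 0.0106). miR-26b at -1.11 lay among these values, and miR-29a, miR-29b and miR-26a lay near miR-30c.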

How the data were processed

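The deposited table gives the authors' log ratio of both channels per probe and array, taken as log2. How the ratio was scaled, background-corrected or directed is not given in the sources used here. Array medians differ. The arrays were not median-centred in the main fit, and median-centred values are given beside it. No intensities were used, so signal over background is unknown and the number of arrays limits the precision. Arrays with CD4+CD25+ cells in Cy3 were multiplied by -1. As the labels do not say which arrays form a replicate, all 6 pairings of arrays of opposite dye were averaged into 3 replicates each and fitted over the 171 miRNA probes with limma (version 3.58.1, R 4.3.3; lmFit, eBayes, Benjamini-Hochberg); the largest p is used. A fit on 6 arrays with a dye column tested the dye. The steps were tested on simulated data. The text names the 5 members, the 3 probes nearest each by root mean square difference, and U6 and the tRNAs. It also names the 8 probes of the resting list, with values for 4 called ones and, after these were seen, for miR-30e and miR-101. Of the list of other cell types 6 probes were found by name, and probes beyond these were named after their values were seen. Members and lists were chosen with earlier results of these data known. Alternatives were other zero points, scale normalization, 1 pairing, 6 separate arrays, single orientations, a robust fit, leaving out noisy probes or a pair of arrays, and no turning.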

Additional observations from a re-analysis of the deposited data

Results flagged for a closer look

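The ratio of several members differed between the 2 dye orientations by a test of that difference (limma on 6 arrays, adjusted over the 171 miRNA probes). Relative to the array median, the mean of the Cy5 orientation minus that of the Cy3 orientation was 2.50 for miR-29a (standard error 0.328), 2.31 for miR-29b, 2.40 for miR-26a and 2.64 for miR-26b. As deposited it was -1.08 for miR-29c. The array medians moved with the same orientation (-0.31 to 0.097 against 1.29 to 1.83). Subtracting them raises this difference by the same amount for every probe. Before the subtraction it was 0.75 for miR-29a, 0.56 for miR-29b, 0.65 for miR-26a and 0.90 for miR-26b, and none of these passed the dye test.

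For miR-29c minus miR-29a and miR-29c minus miR-29b all 3 arrays of one orientation lay below 0 and all 3 of the other above it, and the means of the orientations differed by -1.83 and -1.65. This difference was not tested. miR-29a and miR-29c differ at 1 base, and whether their probes tell them apart was not tested.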

How the results depend on the processing

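With no array turned, 4 members reversed, to 0.375 (miR-29a), 0.28 (miR-29b), 0.33 (miR-26a) and 0.45 (miR-26b), and miR-29c stayed below 0 at -0.54, with 0 members called in limma (0 at an unadjusted p under 0.05), 88 probes lower and 3 higher. Centring on U6 and the tRNAs gave -0.12, -0.25, -0.27 and -0.65 in that order, with miR-29c reversed to 0.054, 0 members and 1 probe called lower. Scale normalization gave -0.47, -0.69, -0.71 and -1.08, with 0 members, 4 probes lower and 9 higher. Arrays with CD4+CD25+ in Cy5 only gave -0.21, -0.44, -0.41 and -0.66, none called, with miR-29c called at -0.95, so 1 member, 7 probes lower and 12 higher. Those in Cy3 only gave 25 probes lower and reversed miR-29c to 0.13. Median centring gave 39 lower and 9 higher, with miR-29c called at -1.18. The robust fit called 2 members and lost miR-29a (-0.59, limma adjusted p = 0.0904) and miR-29b (-0.72, adjusted p = 0.0527). The cause of these changes was not tested.

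Leaving out 1 pair of opposite arrays gave -0.70 to -0.40 for miR-29a, -0.93 to -0.35 for miR-29b, -0.72 to -0.086 for miR-29c, -0.98 to -0.45 for miR-26a, -1.52 to -0.75 for miR-26b and -0.61 to -0.074 for the miR-26 minus miR-29 mean. It left 0 to 14 probes lower, 0 to 115 higher and 0 to 3 members called lower; limma called 0 members when arrays 3 and 2 were left out (2 members and 98 of all probes had an unadjusted p under 0.05) and when arrays 5 and 6 were (3 members unadjusted). The single pairing by array number, the 6 separate arrays and the fit without the 31 noisiest probes kept all 4 calls.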
